A study of Homo sapiens with 6 samples.

Results

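The nuclear tRNA genes of the human genome were examined for R-loop peaks in SH-SY5Y, a human neuroblastoma line. A member is every gene that RefSeq annotates as a tRNA on chromosomes 1 to 22 and X of GRCh38, taken as its span plus 500 bp on each side, and a locus counted as covered in a sample when at least 1 bp of this window lay under a deposited peak. The rule gave 443 loci of 59098 RefSeq genes. The genes span 70 to 108 bp, so the median window of 1073 bp is mostly flank. In DRIP-seq, an antibody to DNA-RNA hybrids collects the DNA that is paired with RNA after restriction digestion, and the sonicated DNA is sequenced. The cells carried 1 of the hairpins named shT2 and shNC3, delivered by lentivirus and kept under puromycin, with 3 samples per hairpin. The series concerns a stable knockdown of TDP-43, a nuclear RNA-binding protein; the labels do not say which hairpin targets it, and differences are given as shT2 relative to shNC3. Whether samples with the same hairpin were infected separately is not stated in the labels. The spread behind each p-value may therefore be technical only, and a hairpin stands for 1 selected population of cells.

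tRNA genes are transcribed by RNA polymerase III. The factor TFIIIC binds control elements inside the transcribed sequence, the A box and the B box, and recruits TFIIIB and the polymerase. Many tRNA genes lie in clusters, the largest on chromosomes 6 and 1, and several genes can encode the same tRNA. An R-loop forms where nascent RNA pairs with its template DNA, and GC-rich promoters of genes read by RNA polymerase II are known for them.

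Sequences of the tRNA genes were available only where a RefSeq promoter window (250 bases before to 50 bases after a start site, GRCh38.p14) of a neighbouring coding or long noncoding gene contains them. None of the tRNA genes had an entry of its own in the promoter table. In 19 tRNA genes the bases held included the B box core GTTCNANNC, which set the strand, and 14 of these genes were held whole. The core was present on either strand in 7.46% of 34961 promoter windows. Of the 14 whole genes, 1 was covered and 13 were never covered. The following are shown because they hold internal promoters of covered and of never covered genes, among them the pair TRL-AAG2-4 and TRL-AAG2-2, which differ in coverage; they are written 5′ to 3′ on the tRNA strand with the B box core in capitals. For TRG-CCC2-1, TRL-AAG2-4 and TRT-AGT1-3 the windows held 53 of 71, 63 of 82 and 72 of 74 bases.
TRG-CCC2-2 (chr16:636736-636806, minus strand, covered in 6 samples): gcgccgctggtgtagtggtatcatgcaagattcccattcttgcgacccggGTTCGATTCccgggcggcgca
TRG-CCC2-1 (chr2:70248991-70249043, minus strand, covered in 4 samples): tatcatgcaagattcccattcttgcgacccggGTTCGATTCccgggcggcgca
TRL-AAG2-4 (chr16:22297159-22297221, plus strand, covered in 6 samples): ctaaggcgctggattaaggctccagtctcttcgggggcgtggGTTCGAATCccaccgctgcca
TRL-AAG2-2 (chr6:28943622-28943703, minus strand, never covered): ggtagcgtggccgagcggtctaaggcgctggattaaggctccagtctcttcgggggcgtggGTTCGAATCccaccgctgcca
TRT-AGT1-3 (chr19:33177057-33177128, plus strand, covered in 3 samples): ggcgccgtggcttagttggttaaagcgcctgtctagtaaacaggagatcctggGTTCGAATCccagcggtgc
TRP-TGG3-2 (chr14:20684016-20684087, plus strand, never covered): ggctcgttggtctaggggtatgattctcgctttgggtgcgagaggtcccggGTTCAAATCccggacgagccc
TRH-GTG1-9 (chr15:45201151-45201222, plus strand, never covered): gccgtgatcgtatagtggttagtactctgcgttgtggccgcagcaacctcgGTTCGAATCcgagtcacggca
The 53 bases held of TRG-CCC2-1 were identical to those of TRG-CCC2-2 in 53 of 53 positions, counted from the 3′ end, and the 63 bases held of TRL-AAG2-4 matched TRL-AAG2-2 in 63 of 63. In the second pair the genes differed in coverage: TRL-AAG2-4 had 1031 bp of its window under peaks in every sample, and TRL-AAG2-2 had 0 bp in every sample. Reads that lie within such identical copies cannot be assigned to 1 of them from their sequence, and the treatment of such reads was not stated.

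The sequence around these loci differed. The bases before the start site of the neighbouring gene are shown for 4 of them, read on the strand of that gene, with the bases of the tRNA gene in capitals.
LOC100287175 (chr16:636702-636951, plus strand, holds TRG-CCC2-2): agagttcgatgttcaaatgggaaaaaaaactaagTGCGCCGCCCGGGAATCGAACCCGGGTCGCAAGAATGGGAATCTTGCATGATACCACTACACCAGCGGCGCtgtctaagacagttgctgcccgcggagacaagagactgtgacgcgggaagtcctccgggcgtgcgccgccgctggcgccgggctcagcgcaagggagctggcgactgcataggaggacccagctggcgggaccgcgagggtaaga
POLR3E (chr16:22297159-22297408, plus strand, holds TRL-AAG2-4): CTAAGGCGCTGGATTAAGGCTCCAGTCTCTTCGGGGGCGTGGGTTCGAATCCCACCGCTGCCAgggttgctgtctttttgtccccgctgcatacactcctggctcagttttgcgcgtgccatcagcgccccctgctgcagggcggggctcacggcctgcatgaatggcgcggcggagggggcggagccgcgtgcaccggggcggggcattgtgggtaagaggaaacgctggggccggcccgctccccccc
TIA1 (chr2:70248794-70249043, minus strand, holds TRG-CCC2-1): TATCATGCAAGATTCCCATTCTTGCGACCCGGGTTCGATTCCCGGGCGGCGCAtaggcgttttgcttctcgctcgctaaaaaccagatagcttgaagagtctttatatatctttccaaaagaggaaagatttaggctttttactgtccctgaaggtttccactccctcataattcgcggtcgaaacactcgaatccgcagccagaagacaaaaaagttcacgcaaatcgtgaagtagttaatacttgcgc
ANG (chr14:20683927-20684176, plus strand, holds TRP-TGG3-2): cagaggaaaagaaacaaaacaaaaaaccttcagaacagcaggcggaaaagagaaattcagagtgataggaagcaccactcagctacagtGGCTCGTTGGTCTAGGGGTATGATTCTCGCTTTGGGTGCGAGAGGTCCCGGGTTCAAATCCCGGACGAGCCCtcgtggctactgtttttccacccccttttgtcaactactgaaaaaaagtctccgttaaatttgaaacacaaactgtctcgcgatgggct
POLR3E encodes a subunit of RNA polymerase III, TIA1 an RNA-binding protein of stress granules, and ANG the ribonuclease angiogenin, which cleaves tRNAs. The GC content of these 250 bases was 61.6% for LOC100287175, 68.4% for POLR3E, 45.6% for TIA1 and 47.6% for ANG. The LOC100287175 and POLR3E windows held tRNA loci covered in all 6 samples. The TIA1 window held a locus covered in 4, and the ANG window a locus with no peak in any sample. The LINC01556 window, which holds the never covered TRL-AAG2-2, had 55.2%. Over the 19 genes with the B box core this GC content ran from 39.2% to 56.8% for never covered genes. For covered genes it ran from 45.6% to 68.4%, so the ranges overlap.

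The lists held 42717 to 50971 peaks per sample, with 49068 as the lowest number in shT2 and 45390 as the highest in shNC3. The genome-wide background recovered from the lists, in fragments per base, lay between 2.99 and 3.02 for shT2 samples and between 1.65 and 1.79 for shNC3 samples. This background was taken as a stand-in for depth, which was not seen itself because counts of reads were not used. Of the markers of noradrenergic neuroblastoma cells, 9 of 10 genes were covered in each of the 6 samples, and of 5 glial markers 1 to 2 were. Of 8 mesenchymal markers, 4 to 5 were covered in the shT2 samples and 7 in each shNC3 sample. The part of depth and of the mesenchymal markers in the differences between hairpins below was not tested, apart from the equal-depth count of calls given in the closing section.

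Most tRNA loci had no peak. The samples with shT2 covered 48, 51 and 47 of the 443 loci, and those with shNC3 covered 46, 42 and 48. The groups overlap, and their means differ by 3.33 loci (48.7 ± 2.1 against 45.3 ± 3.1, SD, n = 3 each; exact permutation test, two-sided, p = 0.3, adjusted p = 0.45 over the 3 summary measures tested). The mean length covered per locus was 74.1 ± 7.0 bp in shT2 and 70.1 ± 5.0 bp in shNC3 (SD, n = 3; exact permutation p = 0.5, adjusted 0.5). With 3 against 3 samples this test cannot go below 0.1. In all, 71 loci (16.0%) were covered in at least 1 sample, 25 (5.64%) in all 6 and 46 in 1 to 5, and 372 (84.0%) in none. Of all RefSeq genes, 32.8% were covered in at least 1 sample. The windows of 131 tRNA genes overlap that of another; merged, there were 366 loci, of which 56 were covered in at least 1 sample and 20 in all 6.

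The tRNA loci were set beside other classes of short gene, whose windows are of like length. In shT2, 11% ± 0.47 of tRNA loci were covered and in shNC3 10.2% ± 0.69 (SD, n = 3). The 87 tRNA pseudogenes, copies that RefSeq marks as not functional, stood at 3.07% ± 0.66 with both hairpins. Small nuclear RNA genes (154) stood at 11.3% ± 0.37 and 10.2% ± 0.37, and the 7910 genes of up to 300 bp other than tRNA at 11.8% ± 0.20 and 11.1% ± 0.23. The 1911 microRNA loci were covered more often, at 23.1% ± 0.34 in shT2 and 24.0% ± 0.38 in shNC3, and there the shT2 samples (22.8% to 23.5%) lay below the shNC3 samples (23.6% to 24.3%; exact permutation p = 0.1). The share of tRNA loci lay above that of tRNA pseudogenes and below that of microRNA loci in each of the 6 samples.

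Small nucleolar RNA (snoRNA) genes were covered more often than tRNA genes. Their RNAs guide the modification of ribosomal RNA and many lie in introns of genes read by RNA polymerase II. Of 1196 snoRNA loci, 20.4%, 20.6% and 20.4% were covered in the shT2 samples and 16.8%, 16.5% and 16.8% in the shNC3 samples, with no overlap between the groups. The tRNA share minus the snoRNA share was -9.47 ± 0.38 percentage points in shT2 and -6.46 ± 0.51 in shNC3 (SD, n = 3), below 0 in each sample. It was lower in shT2 with a difference of -3.01 points, and the groups did not overlap (exact permutation test of the difference, two-sided, p = 0.1, the smallest that 3 against 3 samples allow; adjusted p = 0.3). The snoRNA share was 3.76 points higher in shT2 than in shNC3 (exact permutation p = 0.1), and the tRNA share 0.752 points higher (p = 0.3).

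**Figure D1:**
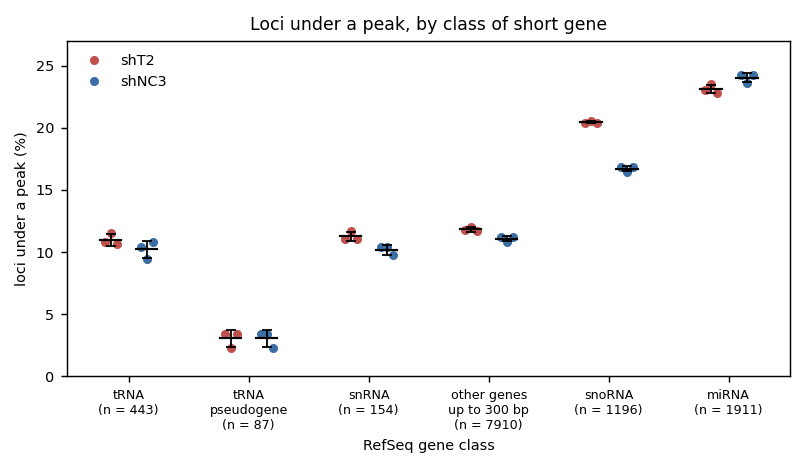
Percent of loci under a peak in each sample (points), with the mean and SD of the 3 samples per hairpin (bars), for 6 classes of short RefSeq gene with the number of loci beneath each name. The tRNA loci sit between 9.48% and 11.5%, the tRNA pseudogenes at or below 3.45%, the snoRNA loci between 16.5% and 20.6% with the shT2 samples above the shNC3 samples, and the microRNA loci between 22.8% and 24.3% with the shT2 samples below.

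Coverage went with neighbouring genes. Of 262 tRNA loci more than 2 kb from any protein-coding or long noncoding RNA (lncRNA) gene, 17 were covered in at least 1 sample and 4 in all 6. Of 28 inside a lncRNA gene, 0 were covered. Of 104 within 2 kb of a gene's end (either end, since the table gives no strand), 32 were covered in at least 1 sample and 12 in all 6, and of 49 inside a protein-coding gene 22 and 9. Per sample, the share away from genes was 3.69% ± 0.44 in shT2 and 2.93% ± 0.44 in shNC3, near a gene end 22.1% ± 1.9 and 19.2% ± 1.7, and inside coding genes 32.7% ± 5.4 and 36.1% ± 1.2 (SD, n = 3). Within none of the contexts did the hairpins separate (exact permutation tests, 4 contexts, lowest p = 0.3, adjusted 0.533). The snoRNA loci also had their low shares away from genes, 4.66% ± 0.62 in shT2 and 3.23% in each shNC3 sample, but 620 of the 1196 lie inside coding genes, against 49 of the 443 tRNA genes. Inside coding genes, 29.5% ± 0.25 of snoRNA loci were covered in shT2 and 23.9% ± 0.90 in shNC3.

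**Figure D2:**
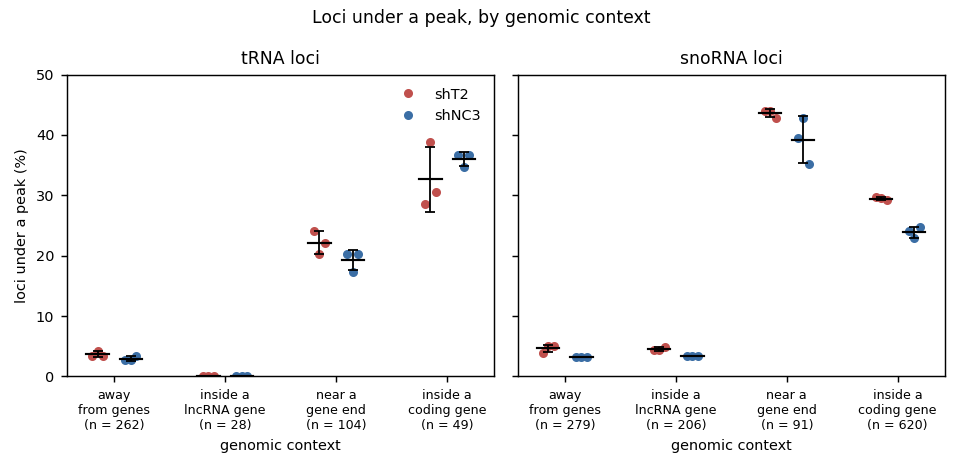
Percent of tRNA loci (left) and snoRNA loci (right) under a peak in each sample (points), with mean and SD of 3 samples per hairpin (bars), by position relative to protein-coding and lncRNA genes. Loci near a gene end or inside a coding gene are covered at 17.3% or more in every sample for both classes, and loci away from genes at 5.02% or less.

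Loci within 2000 bp of a start site were covered more often than loci farther away. Of 48 tRNA genes within 500 bp of the start of a RefSeq promoter, 19 (39.6%) were covered in at least 1 sample, of 32 farther off but within 2000 bp 16 (50%), of 84 beyond that but within 10000 bp 18 (21.4%), and of the remaining 274 16 (5.84%). The median distance was 1094 bp for the 25 loci covered in all 6 samples, 2432 bp for those covered in 1 to 5 and 17765 bp for the 369 never covered whose chromosome has promoters in the table; 5 loci on chromosome 8 have no distance. Among the tRNA genes within 2000 bp of a start site, the median GC content of the 300-base promoter window was 64.3% for the 15 covered in all 6 samples, 60% for the 20 covered in 1 to 5 and 52.3% for the 45 never covered, against 58.7% over all promoters. The median number of CpG dinucleotides per window was 27, 23 and 16 in this order, against 14 over all promoters. The ranges overlap: GC content ran from 46.3% to 78.7% at loci covered in all samples and from 30.7% to 75.7% at loci never covered. These are descriptions over loci that share samples and, in clusters, neighbours, and carry no test.

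Few of the peaks had their summit in a tRNA gene. The 40 to 47 distinct peaks per sample that touched a tRNA window had median widths of 930 to 1430 bp, against 623 to 679 bp for all peaks, and 30.0% to 40.5% of them overlapped a RefSeq promoter window, against 9.77% to 12.6% of all peaks. A wide peak is more likely to touch any window, so the width is in part set by the rule. Of these peaks 1 to 4 per sample had their summit inside a tRNA gene. The genes fill only 70 to 108 bp of a median window of 1073 bp. How many summits would fall in them by position alone was not computed, so the count does not show that summits avoid the genes. The gene itself, without flank, was touched at 28 to 36 loci per sample. Along the genome, 7.0% of tRNA genes lay under a peak at the gene midpoint in shT2 and 6.85% in shNC3 (means of 3 samples), and 3.84% and 4.06% did so 4 kb to the left. At 1650 bp to the right the shares were 7.6% and 8.28%, so the midpoint was no maximum. For tRNA genes away from other genes the midpoint shares were 2.67% and 1.65%, and for snoRNA genes 16.4% and 13.2%.

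**Figure D3:**
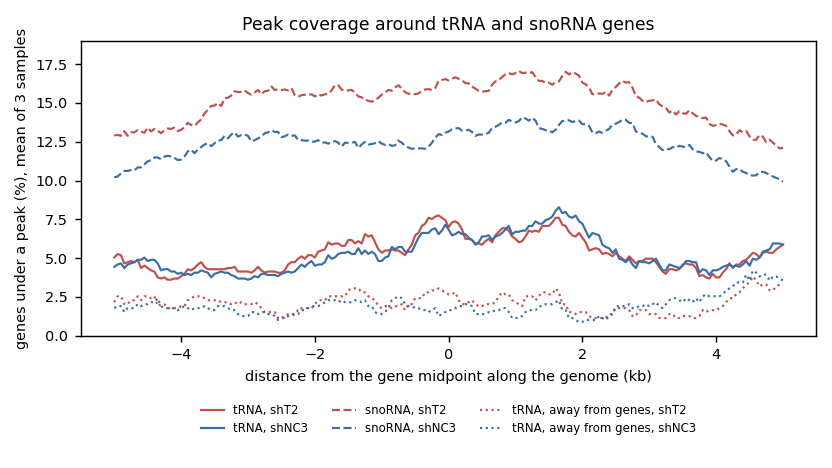
Percent of genes whose position at a given distance from the gene midpoint (horizontal axis, kb, in genome orientation) lies under a peak, as the mean of 3 samples per hairpin, for all 443 tRNA genes (solid), 1196 snoRNA genes (dashed) and the 262 tRNA genes away from other genes (dotted). The tRNA lines of both hairpins run together, at 7.0% and 6.85% at the midpoint, while the snoRNA lines stand apart at 16.4% and 13.2%.

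By amino acid, arginine tRNA genes had the highest share covered: 10 of 26 in at least 1 sample and 7 in all 6. Those 7 were TRR-CCT1-1, TRR-CCT2-1 and TRR-TCG3-1 within a stretch of chromosome 17 in KCTD2, TRR-CCT4-1 near LUC7L2 on chromosome 7, TRR-TCG1-1 near POLG on chromosome 15, TRR-TCT3-1 near SLC27A4 on chromosome 9 and TRR-ACG1-2 near HMGN4 on chromosome 6. The 3 genes at KCTD2 lie under 1 stretch of peaks and are not separate observations. Of 19 glutamine genes 0 were covered. The median distance to a start site did not order the classes: it was 3074 bp for arginine and 20000 bp for glutamine genes, but 50056 bp for cysteine genes, of which 17.2% were covered, and 7421 bp for proline genes, of which 10% were. Of the other classes, 2 of 38 alanine, 5 of 29 cysteine, 6 of 33 glycine, 5 of 32 leucine and 6 of 30 valine genes were covered in at least 1 sample. Of 8 initiator methionine genes (TRX-CAT), whose tRNA starts translation, 2 were covered. TRX-CAT1-1 near ILF2 on chromosome 1 had 498 bp under peaks in all 6 samples and TRX-CAT1-2 on chromosome 6 only in the shT2 samples.

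Both selenocysteine tRNA genes, TRU-TCA1-1 on chromosome 19 and TRU-TCA2-1 on chromosome 22, which decode UGA for selenoproteins, had 0 bp under peaks in every sample. Of the tyrosine TRY-GTA genes, whose transcripts carry an intron that is spliced out, TRY-GTA2-1 on chromosome 2 was the only one covered in any of the 6 samples, with 0, 819 and 1089 bp in shT2 and 1055, 1071 and 1089 bp in shNC3. The shNC3 samples lay close together and the shT2 samples ran from no coverage to the whole window (log2 difference -1.29 ± 1.00 SE; limma adjusted p = 0.352). TRR-TCT4-1 on chromosome 1, the arginine tRNA gene known for its expression in the nervous system, had 0 bp in all samples. Of the 28 genes whose span exceeds 85 bp, long enough for an intron or an extra arm, 7 were covered in at least 1 sample, against 64 of the 415 shorter ones. The shares by number of gene copies of the same tRNA lay close together: 17.4% of 201 genes with 1 copy, 15.6% of 77 with 2 to 3 copies and 15.2% of 145 with 4 or more were covered in at least 1 sample.

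The large tRNA gene clusters were nearly bare of peaks. How far reads could be placed uniquely within these clusters was not tested. Chaining genes at gaps of up to 50 kb gave 138 clusters. The largest, 43 genes at chr6:28474552-28989083, had 2 genes covered in any sample, and the second, 33 genes at chr6:27478812-27795932, had 2, both in shNC3 sample 1. The 31 genes at chr1:161399700-161540314 had 1, and the 18 genes at chr6:26673362-26828299 and the 18 at chr6:27158127-27335062 had 0. On all of chromosome 6, 7 of 155 tRNA genes were covered in at least 1 sample, and on chromosome 1 5 of 98. Of the 241 genes in the 12 clusters of at least 10 genes, 27 were covered in any sample, as were 27 of the 84 genes that stood alone.

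The exception among the 6 largest clusters was chr17:8119155-8227064, where 11 of 18 genes were covered in at least 1 sample and 3 in all 6. It covered 7, 6 and 8 genes in the shT2 samples and 8, 5 and 9 in the shNC3 samples, so the hairpins overlapped. The 3 genes covered in all samples, TRT-AGT1-2, TRS-AGA2-6 and TRI-AAT4-1, lie side by side at its right end inside CTC1, a gene of telomere replication, and within 2948 bp of the start of LINC00324. TRS-AGA2-6 had 1082 bp, its whole window, under peaks in 5 samples and 675 bp in shNC3 sample 3. At its left end, TRL-TAG1-1 and TRR-TCT2-1 near ALOXE3 were covered in all shNC3 samples and in shT2 samples 2 and 3. The median distance to a start site in this cluster was 2469 bp, against 14966 to 43010 bp in the other 5.

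**Figure D4:**
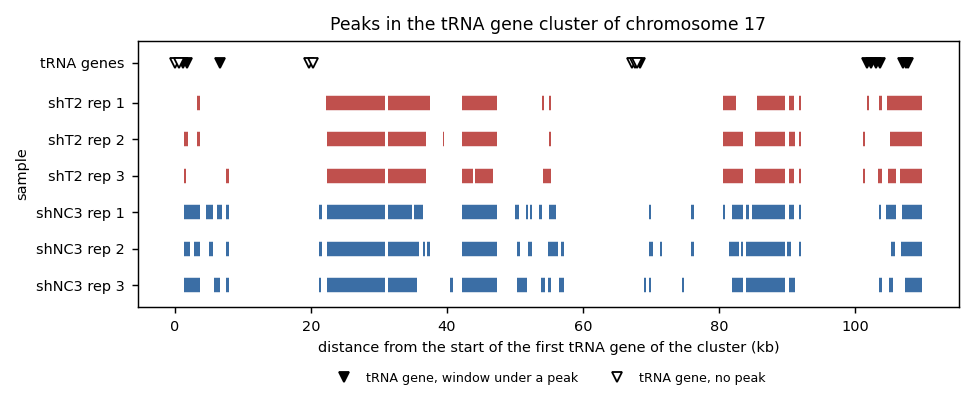
Peaks (bars) in each of the 6 samples over the tRNA gene cluster of chromosome 17, with the position of its 18 tRNA genes (triangles; filled where the gene's window is under a peak in at least 1 sample), against the distance in kb from the first gene. The widest peaks lie between tRNA genes and are seen with both hairpins, and the 11 covered genes are at the 2 ends and at 1 gene between them.

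Chromosome 7 held a group of covered genes far from any start site. Of 13 genes at chr7:149546540-149707740, with a median distance of 106504 bp, 4 were covered in at least 1 sample, all of them cysteine or serine tRNA genes. TRC-GCA19-1 had 1037, 1037 and 693 bp in shT2 and 738, 388 and 408 bp in shNC3, overlapping at the upper end of shNC3 (limma adjusted p = 0.118). TRC-GCA23-1 had 1072, 700 and 1072 bp in shT2 and 0, 364 and 372 bp in shNC3, which do not overlap but did not pass the test (adjusted p = 0.0832). TRC-GCA16-1, with 526, 355 and 697 against 0, 349 and 0 bp, did not pass either (adjusted p = 0.0824). TRS-AGA5-1, with 996, 481 and 0 against 620, 772 and 657 bp, overlapped (adjusted p = 0.447).

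Of the loci covered in all samples, the 5 under the widest peaks were TRR-TCT3-1 at SLC27A4 on chromosome 9 (mean of the widest peak over 6 samples 14210 bp), TRI-TAT1-1 at PLEKHG2 on chromosome 19 (11694 bp), TRX-CAT1-1 at ILF2 on chromosome 1 (10481 bp), TRG-CCC2-2 at LOC100287175 on chromosome 16 (10363 bp) and the glutamate gene TRNAE-UUC at chr1:948125-948196 in NOC2L (10291 bp). Each window was touched by a broad peak that reached far beyond it. At TRX-CAT1-1 this peak ended 3 bp short of the gene in all 6 samples. At TRI-TAT1-1 a peak edge lay 240 bp from the gene in 4 samples, so the gene itself was not always covered. The authors' fold enrichment of the peaks touching these 5 windows stood at a median percentile of 96.4 to 99.3 within the lists. TRR-TCT3-1 had 1091, 1091 and 880 bp in shT2 and 1091, 1091 and 675 bp in shNC3 (adjusted p = 0.740). TRG-CCC2-2 and TRNAE-UUC had their whole windows, 1071 and 1072 bp, under peaks in every sample. With TRR-CCT2-1, TRR-TCG3-1 and TRR-CCT4-1 these were the 5 loci covered end to end in all 6 samples, at which no rise could have been seen.

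**Figure D5:**
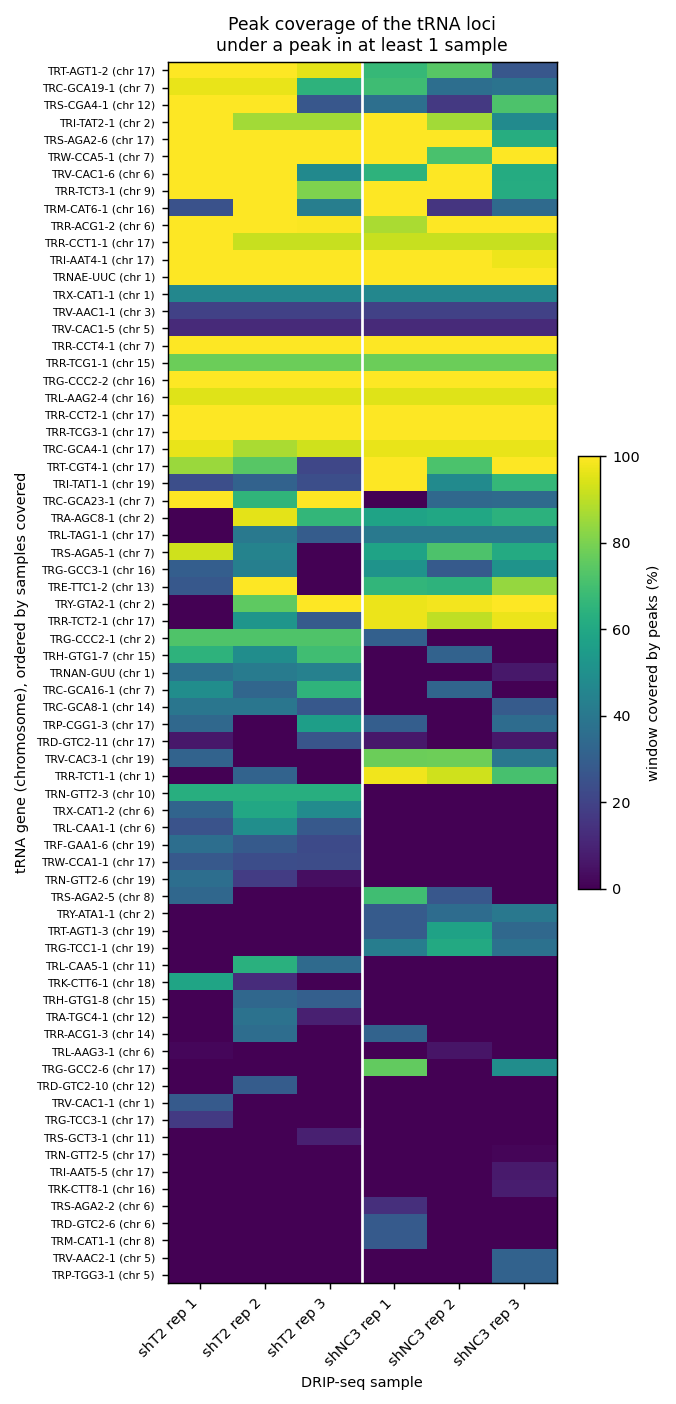
Percent of each tRNA window under peaks (colour, 0 to 100) in the 6 samples (columns; 3 shT2 left and 3 shNC3 right of the white line) for the 71 loci covered in at least 1 sample (rows), ordered by the number of samples covered. The top 25 rows are covered in all samples; below them, blocks of rows are covered with 1 hairpin only, 14 with shT2 and 12 with shNC3.

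Coverage was shared by both hairpins at 45 of the 71 loci, seen only in shT2 samples at 14 and only in shNC3 samples at 12. In 3 of 3 shT2 samples and 0 of 3 shNC3 samples, 6 loci were covered, 8.45% of the 71, against 3.61% of all gene windows covered in any sample; the reverse held for 3 loci, 4.23% against 3.47%. The 6 were TRN-GTT2-3, TRX-CAT1-2, TRL-CAA1-1, TRF-GAA1-6, TRW-CCA1-1 and TRN-GTT2-6, and the 3 were TRG-TCC1-1, TRT-AGT1-3 and TRY-ATA1-1. Of these, TRF-GAA1-6 and TRN-GTT2-6 are neighbours at NDUFS7 with overlapping windows. The shares set beside these counts are over windows of unlike length. The median span was 5594.5 bp for all RefSeq genes and 73 bp for tRNA genes. The share among short genes alone was not computed, so no excess at tRNA loci is read from this.

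The covered lengths were then tested on the scale log2(bp + 100), with limma fitted to all gene windows covered in at least 3 samples. Of the 71 covered tRNA loci, 42 were tested, 19 were covered in fewer than 3 samples and 10 had the same length in all 6. At an adjusted p under 0.05, 13 of the 42 changed (31.0%), 8 higher and 5 lower in shT2, and 29 did not pass. Over all 15243 windows tested, 40.1% passed (24.1% higher and 16.0% lower), and over other genes of up to 300 bp 25.3%, so the tRNA share lay between these. Scaling each sample to the same total covered length moved the split over all windows from 60.2% to 46.8% higher and the median log2 difference from 0.085 to -0.120; for tRNA windows it gave 7 higher and 6 lower. The median log2 difference of the 42 was 0.13. The groups did not overlap at 19 of the 42 (45.2%), 12 with shT2 higher and 7 lower, against 55.1% of all windows.

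Among the 8 loci that rose, 5 had no peak at all in shNC3, so no fold is given for them. These 5 entered the fit only through their shT2 samples. TRN-GTT2-3, an asparagine gene on chromosome 10, lies 19226 bp from the nearest start site. It had 674 bp in each shT2 sample and 0 bp in each shNC3 sample (log2 difference 2.95 ± 0.24 SE, adjusted p = 0.000667). The SD was 0 bp with both hairpins, so this SE rests on the spread of other windows. A peak edge 100 bp from the gene fell on the same base in 3 samples. TRX-CAT1-2, an initiator methionine gene on chromosome 6, had 347, 642 and 518 bp in shT2 and 0 bp in shNC3 (2.56 ± 0.30, adjusted p = 0.00208). TRL-CAA1-1, a leucine gene near HCG14 on chromosome 6, had 282, 545 and 311 against 0 bp (adjusted p = 0.00378). These loci were bare in one hairpin and covered over a part of the window in every sample of the other.

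TRF-GAA1-6, a phenylalanine gene near NDUFS7 on chromosome 19, which encodes a subunit of mitochondrial complex I, had 387, 304 and 242 bp in shT2 and 0 bp in shNC3 (2.02 ± 0.27, adjusted p = 0.00315). The peaks touching TRF-GAA1-6 had a fold enrichment of 2.85, 2.72 and 6.11 in shT2 samples 1, 2 and 3. These stood at percentiles 2.24, 1.61 and 66.5 within the lists, so the first 2 were among the weakest peaks. The neighbour of TRF-GAA1-6, TRN-GTT2-6, with 387, 191 and 41 against 0 bp, did not pass (adjusted p = 0.0717). TRW-CCA1-1, a tryptophan gene of the chromosome 17 cluster, had 299, 252 and 250 against 0 bp (1.87 ± 0.25, adjusted p = 0.00295). The pair at NDUFS7 has overlapping windows and is not 2 separate observations.

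The other 3 loci that rose had peaks with both hairpins. The asparagine gene TRNAN-GUU at chr1:950986-951059 in NOC2L had 401, 445 and 473 bp in shT2 and 0, 0 and 70 bp in shNC3 (adjusted p = 0.00473); its call was lost with 2000 bp of flank (adjusted p = 0.0585) and with peaks enriched 5-fold or more (0.247). TRG-CCC2-1, whose held bases equal those of TRG-CCC2-2, had 774 bp in each shT2 sample and 328, 0 and 0 bp in shNC3, 7.08 times as much (adjusted p = 0.0327). A peak edge 203 bp from this gene fell on the same base in 4 samples. TRH-GTG1-7, a histidine gene in SHF on chromosome 15, had 693, 527 and 742 against 0, 337 and 0 bp, 5.82 times as much (adjusted p = 0.0478). The calls of TRG-CCC2-1 and TRH-GTG1-7 were lost when single samples were left out: for TRG-CCC2-1, leaving out any of the shT2 samples or shNC3 sample 2 or 3 gave an adjusted p of 0.0874 to 0.0918, and for TRH-GTG1-7 leaving out any sample but shNC3 sample 2 gave 0.101 to 0.128. Counting all alternatives that tested them, TRG-CCC2-1 lost its call under 11 of 19 (limma adjusted p up to 0.201). TRH-GTG1-7 lost it under 14 of 18 (up to 0.390).

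Of the 5 loci that fell, 3 had no peak in shT2. These 3 entered the fit only through their shNC3 samples. TRG-TCC1-1, a glycine gene near DPP9 on chromosome 19, had 0 bp in each shT2 sample and 456, 651 and 401 bp in shNC3 (log2 difference -2.57 ± 0.28 SE, adjusted p = 0.00167). TRT-AGT1-3, a threonine gene near LOC124904691 on chromosome 19, had 0 against 308, 619 and 361 bp (-2.36 ± 0.32, adjusted p = 0.00329). TRY-ATA1-1, a tyrosine-class gene in ARPC2 on chromosome 2, had 0 against 313, 385 and 438 bp (-2.25 ± 0.26, adjusted p = 0.00192). At DPP9 the neighbouring valine gene TRV-CAC3-1, with 340, 0 and 0 against 834, 837 and 424 bp, did not pass (adjusted p = 0.0526).

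The other 2 loci that fell were covered with both hairpins. TRR-TCT1-1, an arginine gene in BCAR3 on chromosome 1, had 0, 347 and 0 bp in shT2 and 1061, 1006 and 770 bp in shNC3 (-2.66 ± 0.67, adjusted p = 0.0280). TRI-TAT1-1, an isoleucine gene near PLEKHG2, had 261, 343 and 261 bp in shT2 and 1093, 521 and 728 bp in shNC3 (-1.14 ± 0.34, adjusted p = 0.0436). Its window is the one touched by the broad peak described above. Both calls were lost when single samples were left out: for TRR-TCT1-1 any sample except shT2 sample 2 (adjusted p 0.0685 to 0.0854), and for TRI-TAT1-1 any sample except shNC3 sample 2 (0.0769 to 0.110). Counting all alternatives, TRR-TCT1-1 lost its call under 8 of 19 and TRI-TAT1-1 under 8 of 18 (limma adjusted p up to 0.124).

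The edges of peaks at tRNA loci often fell on the same base in several samples. The nucleic acids had been cut with BsrGI (site TGTACA), EcoRI (site GAATTC), HindIII (site AAGCTT), SspI (site AATATT) and XbaI (site TCTAGA). Each site reads the same on both strands, and none contains another. Of 477 peak edges inside promoter windows that were shared by at least 3 samples, 475 (99.6%) had such a site within the 20 bases around the edge, against 3.21% of 7757 edges seen in 1 sample and 1.49% of the 20 central bases of 34961 promoter windows. Of the 71 covered tRNA windows, 23 held an edge shared by at least 3 samples, and 6 an edge shared by all 6. Among these edges 1 lay in promoter sequence, and it is shown with its SspI site in capitals.
TRI-TAT1-1 edge (chr19:39412490-39412509, plus strand, shared by 4 samples): cctcatgAATATTcaaaaca
The constant lengths at TRX-CAT1-1 (498 bp), TRV-AAC1-1 (209 bp), TRV-CAC1-5 (127 bp), TRR-TCG1-1 (832 bp) and TRL-AAG2-4 (1031 bp) came from such shared edges at 3, 292, 374, 259 and 449 bp from the gene. At these loci a covered length thus ends where a peak edge is fixed in all samples; whether a cut site lies there was not tested, since no sequence of these edges was used here.

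The genes that make and process tRNA were examined with the same fit, over their whole span plus 500 bp. Of 23 tested genes of RNA polymerase III transcription, 8 were higher in shT2, 1 was lower and 14 did not pass (median log2 difference 0.34). GTF3C1, the largest subunit of TFIIIC, had 27.1 ± 1.3 kb under peaks with shT2, against 15.8 ± 0.92 kb with shNC3 (SD, n = 3; log2 difference 0.78 ± 0.06 SE, adjusted p = 0.000564). POLR3E, whose promoter holds TRL-AAG2-4, had 22.9 ± 1.4 against 15.7 ± 0.19 kb (0.53 ± 0.05, adjusted p = 0.00112), although the tRNA window itself was covered over 1031 bp in all samples. POLR1C, a subunit shared by RNA polymerases I and III, had 11.5 ± 0.86 against 6.90 ± 0.52 kb (adjusted p = 0.00209), and POLR3F, a subunit of RNA polymerase III, had 1494, 611 and 2234 bp against 0 bp in each shNC3 sample (adjusted p = 0.00305). Over all windows 24.1% were higher, 16.0% were lower and the median was 0.085. The values of this and the following lists come from the unscaled fit. Scaling to the same total covered length moved the median over all windows to -0.120.

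Of 22 tested genes of tRNA processing and export, 7 were higher, 0 lower and 15 did not pass (median 0.48). Over all windows 24.1% were higher and 16.0% lower. XPO5, an export receptor for small structured RNAs, had 6.87 ± 0.76 kb in shT2 and 2.72 ± 0.56 kb in shNC3 (adjusted p = 0.00343); its window overlaps that of POLR1C. RTRAF, a subunit of the tRNA ligase complex, had 2.92 ± 0.45 against 0.221 ± 0.38 kb (adjusted p = 0.0186), and RPP14, a subunit of RNase P, 6.42 ± 0.33 against 4.95 ± 0.20 kb (adjusted p = 0.00861).

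Of 21 tested cytosolic tRNA synthetase and scaffold genes, 9 were higher, 1 lower and 11 did not pass (median 0.26). The shares over all windows were 24.1% higher and 16.0% lower. EEF1E1, a scaffold of the multi-synthetase complex, had 4.44 ± 0.73 kb in shT2 and 0.986 ± 0.23 kb in shNC3 (adjusted p = 0.00147). GARS1, NARS1 and MARS1, which charge glycine, asparagine and methionine tRNAs, had 4.36 ± 0.57 against 1.58 ± 0.20 kb, 2.13 ± 0.42 against 0.748 ± 0.04 kb and 21.6 ± 1.1 against 14.7 ± 1.6 kb (adjusted p 0.00164, 0.00363 and 0.00637). With only peaks of at least 5-fold enrichment the GARS1 difference turned to -0.08 and did not pass (adjusted p = 0.835). Of 16 tested tRNA modification genes, 5 were higher, 1 lower and 10 did not pass (median 0.47), beside the same shares over all windows. PUS7, a pseudouridine synthase, had 17.5 ± 1.3 against 7.34 ± 0.45 kb (adjusted p = 0.000356), and NSUN2, a cytosine methyltransferase, 8.49 ± 0.63 against 5.40 ± 0.59 kb (adjusted p = 0.00578). ELP3 of the Elongator complex, with 2482, 3832 and 1519 bp, and the methyltransferase gene TRMT10A, with 538, 1617 and 1040 bp in shT2, had 0 bp in each shNC3 sample (adjusted p = 0.000738 and 0.00260). More coverage of a gene is a statement on peaks and not on its transcript.

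Most other RNA genes read by RNA polymerase III had no peak either. Of 38, 8 were covered in at least 1 sample and 4 in all 6, and of the 5 tested 1 was lower and 4 did not pass (median log2 difference -0.69). BCYRN1, a brain cytoplasmic RNA, had 1200 bp and RN7SL1, the RNA of the signal recognition particle, 843 bp under peaks in every sample. Of the 17 copies of the 5S ribosomal RNA gene on chromosome 1 named RNA5S1 to RNA5S17, those covered were RNA5S6, with 198, 254 and 204 bp in shT2 and 406, 448 and 390 bp in shNC3, and RNA5S17, with 0, 0 and 32 against 136, 170 and 216 bp. The shNC3 samples were higher at both without overlap. RNA5S17 passed the limma test (adjusted p = 0.0168) and RNA5S6 did not (0.0777). Whether reads at these 17 copies could be assigned to a single copy was not tested, so the values may not belong to the copy named. RN7SK, an RNA that restrains the elongation factor P-TEFb, had 774 bp in each shT2 sample and 369, 419 and 0 bp in shNC3 (adjusted p = 0.128), and RNU6-9, a U6 small nuclear RNA gene, 511, 474 and 0 against 590, 678 and 726 bp (adjusted p = 0.265).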

How the data were processed

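DRIP-seq peaks of 6 SH-SY5Y samples were used, 3 per hairpin. Per the submitters' processing notes, Bowtie2 2.4.4, SAMtools and MACS2 2.2.6 were used with hg38; each deposited list was called on 1 sample, and no peak in it has a q-value above 0.01. The deposited columns give other values, namely positions and summit offsets, an integer score, the fold enrichment (a linear ratio) and the −log10 p-value and −log10 q-value, all as the authors' caller wrote them. The control used in the calling was not stated. Counts of reads were not used; the background in fragments per base was recovered from fold and p.

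The tRNA loci, gene classes and gene names come from RefSeq's GRCh38.p14 table. Covered bp per window (span plus 500 bp on each side) were computed from the merged peaks of each sample. limma 3.58.1 (lmFit, eBayes with trend and robust, R 4.3.3) was fitted to log2(covered bp + 100), unscaled because a window covered end to end cannot rise, over 15243 windows covered in at least 3 of 6 samples and not equal in all, with Benjamini-Hochberg adjustment over all of them and a threshold of 0.05. Single values were compared by exact two-sided permutation tests (scipy 1.17.1). On simulated data over 15243 windows for shT2 against shNC3, the fit recovered 14.0%, 30.0%, 50.0% and 78.0% of 50 windows each changed by 0.5, 1, 2 and 3 on the log2 scale, with 3 false calls.

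The members and gene lists were chosen with earlier results of these data known. Loci were named by rule: called loci with non-overlapping groups, up to 10 per direction; loci covered in 3 of 3 samples of one hairpin and 0 of 3 of the other; the 6 largest clusters; the TRU-TCA, TRY-GTA and TRR-TCT4-1 genes; the 5 widest loci; up to 4 genes per list by p, of which 1 is not reported here. Loci named beside these, such as TRV-CAC3-1, the arginine genes, the chromosome 7 group and those with printed sequences, were chosen after their values were seen. Same-numbered samples did not deviate together (r = -0.027, -0.028 and -0.004 over 15243 windows), so the numbers were not taken as pairs. Mitochondrial tRNA genes and chromosome Y were not analysed here.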

Additional observations from a re-analysis of the deposited data

How the results depend on the processing

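The tRNA share below the snoRNA share held under each of the 15 alternatives tried, with a change of -2.43 to -4.60 points (exact permutation p = 0.1, and 0.25 with samples of the same number as pairs); leaving out 1 sample each gave -2.76 to -3.27. The difference in loci covered turned to -2.0 with 2000 bp of flank, -0.667 where a peak had to cover at least 50% of the window and -0.333 among peaks enriched 5-fold or more; the mean length turned to -1.95 bp with the last (p 0.6 to 1 throughout). Calls at tRNA loci numbered 26 (14 lower, of 68 tested) with 2000 bp of flank, 7 (4 higher, 3 lower, of 22) without flank and 6 (2 higher, of 31) with 5-fold peaks (the cause was not tested), and 12 of 40 at equal depth. A pseudocount of 20 bp gave 3 lower. With the replicate block, which the deviations did not bear out, 9 were called, 6 higher and 3 lower. Leaving out 1 sample each gave 10 to 12 calls, 6 to 8 higher and 3 to 4 lower. Of the 13 called loci, TRF-GAA1-6, TRL-CAA1-1, TRN-GTT2-3, TRX-CAT1-2 and TRY-ATA1-1 kept their call under every alternative that tested them, 8 lost it under at least 1, and 0 turned direction. TRF-GAA1-6 was tested under 15 alternatives and the other loci that kept it under 18, against 19 for TRNAN-GUU. None of those that kept it was tested with 5-fold peaks, since such peaks covered each in fewer than 3 samples. Each of those had no peak with 1 hairpin and entered the fit only through the other. The filter of at least 3 samples counted all 6 even where 1 sample was left out. Their lasting calls are therefore no independent support. Among the gene lists, an alternative chosen after seeing the data (only genes of up to 300 bp) left 4 genes and 2 calls, and the GARS1 log2 difference turned to -0.0827 with 5-fold peaks. The lists name peaks only, so what lies below the authors' threshold, and the strand of any hybrid, was not seen.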
